A study of Nannochloropsis oceanica with 18 samples.

Results

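Mid-width regions near the chromosome ends of the oleaginous microalga Nannochloropsis oceanica IMET1 were examined for H3K27ac, Kcr and H3K36me2. A region was taken when it was at least 1000 and under 12000 bp wide and lay within 50 kb of a chromosome end, the low-coordinate end counted from position 0 and the high-coordinate end from the largest region end listed for that chromosome. By this rule 385 of 3803 regions were taken, and the other 2404 of the 2789 mid-width regions, termed interior, served as the comparison. All 30 chromosomes contributed. At least 1 region was found at 57 of the 60 chromosome ends, with a median of 7 and at most 11 per end, 185 at low-coordinate (left) and 200 at high-coordinate (right) ends. Their width was 1005 to 11764 bp with a median of 2505 bp, against 3189 bp in the interior. A further 89 regions within the same 50 kb were narrower (75) or broader (14) and were left out. Since the right end of a chromosome is set by the last listed region, 23 end regions lie at distance 0 by construction.

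The groups were cells sampled in logarithmic growth from nitrogen-replete medium (C0) and cells kept without nitrogen for 1 day (N1) or for 2 days (N2), each profiled by ChIP-seq for the 3 marks in 2 libraries, which gives 18 libraries. All cells were wild-type strain IMET1. The deprived cells had also been washed, moved to new cultures and lit less strongly than the C0 culture, so that in any comparison with C0 the part of nitrogen cannot be told apart from that of transfer or light. The labels give the same antibody number for H3K27ac and H3K36me2, whereas the study's methods name other antibodies, a different one for each mark. Which antibody was used cannot be told from these sources, and the marks are named here as in the labels.

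Acetylation of histone H3 at lysine 27 (H3K27ac) and lysine crotonylation (Kcr) are acyl marks that some enzymes can both place, and are generally found at active promoters and enhancers. Dimethylation of lysine 36 (H3K36me2) is usually spread over transcribed or intergenic stretches and not focused at promoters. The chromatin beside telomeres is often poor in acetylation, a state best known from budding yeast, where it silences genes placed there. In Nannochloropsis, loss of nitrogen halts growth and leads the cells to store triacylglycerol.

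Each value is the ratio of the deposited pileup over a region to its local background (lambda), after 0.5 was added to both, so that 1 means no enrichment. The ratio understates changes of low values. The values of both libraries were the same for H3K36me2 in C0 and for Kcr in N2, and such a pair was used once, which leaves 16 libraries. The 7 remaining pairs differed by no more than sampling noise gives, with chi-square values of 0.665 to 0.773 for each degree of freedom, and correlated at r = 0.879 to 0.994 over the end regions. Each group was therefore counted as 1 sample. The limma tests below compare libraries and not conditions, and their p-values and standard errors (SE) measure only how far libraries differ, which may be technical. From the pileup's step, the libraries held 1.86 to 7.29 M fragments, and the median end region had 86 to 258 steps of coverage. For H3K36me2 in C0 both pileup and background stood on a higher scale than in the deprived libraries, so that this mark can be compared across conditions only as a ratio.

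In nitrogen-replete cells the end regions carried less H3K27ac and Kcr than the interior. The median H3K27ac ratio in the 2 C0 libraries was 2.26 and 2.27 at ends, against 2.61 and 2.59 in the interior, and the median Kcr ratio was 2.35 and 2.31 against 2.55 and 2.58. The lower median came with a larger unmarked class: 124 end regions (32.2%) had an H3K27ac ratio under 1, against 23.5% of interior regions, and 213 (55.3%) had a ratio of at least 2, against 64.7%. H3K36me2 was nearly flat, with a median of 1.07 at ends and 1.16 in the interior and no region at a ratio of 2 in either class. The end regions were also the more varied class, as the SD of log2 H3K27ac enrichment over regions was 1.38 at ends and 1.29 in the interior. No test was made of these levels, because regions of 1 library are not replicates.

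**Figure D1:**
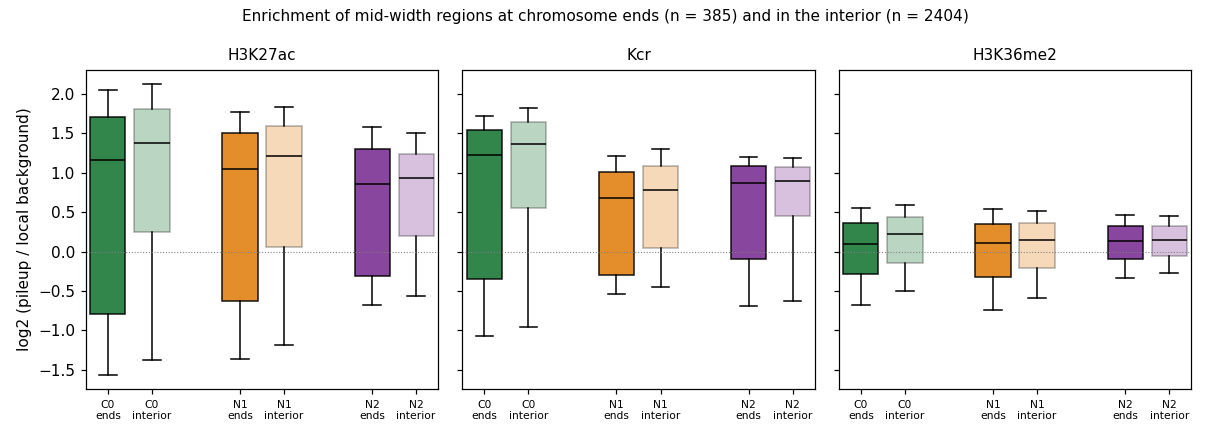
Log2 ratio of pileup to local background (y axis) of regions at chromosome ends (dark boxes, n = 385) and in the interior (pale boxes, n = 2404), by mark and condition. Boxes span the quartiles, the line is the median and the whiskers reach the 10th and 90th percentiles; the H3K27ac median of the end regions was 2.25 as a ratio in C0, against 2.60 in the interior, and 1.81 against 1.91 in N2.

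The gap between ends and interior was narrower in N2 than in C0. As the median log2 enrichment of end minus interior regions, H3K27ac gave -0.20 and -0.19 in the C0 libraries, -0.12 and -0.20 in the N1 libraries and -0.08 and -0.07 in the N2 libraries. The N1 libraries thus overlapped those of C0, whereas both N2 libraries lay above both C0 libraries. Kcr gave -0.12 and -0.16 in C0, -0.11 and -0.12 in N1 cells, and -0.03 in the single N2 library. H3K36me2 gave -0.12 in C0, -0.03 and -0.04 in N1 cells, and -0.01 and -0.02 in N2. In N2 the share of regions with a Kcr ratio of at least 2 was higher at ends (37.7%) than in the interior (34.9%), the reverse of C0 (61.3% and 69.0%). With 2 libraries against 2, the smallest exact permutation p is 0.333, so these gaps are given without a test. The spread fell as well. The SD of log2 enrichment over interior regions in C0 and N2 was 1.29 and 0.777 for H3K27ac. It was 1.058 and 0.693 for Kcr and 0.475 and 0.301 for H3K36me2. A gap between medians shrinks with the spread, and this part was not tested.

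Width moved with the gap. End regions were narrower, and narrow regions had lower ratios everywhere. Among regions of 1 to 3 kb (215 at ends) the C0 H3K27ac difference was -0.04, at 3 to 6 kb (108) it was -0.22, and at 6 to 12 kb (62) it was -0.05. Weighted over these classes, H3K27ac had a C0 difference of -0.09, Kcr of -0.10 and H3K36me2 of -0.07. In N2 the widest end regions had a median H3K27ac ratio of 2.50, against 2.27 for interior regions of that width. The background was not the same at both places either: median lambda of H3K27ac in C0 was 20.7 at ends and 20.2 in the interior, whereas in N2 it was 23.4 and 23.2 at ends in the 2 libraries and 23.9 and 23.7 in the interior. The part of width and background in the gap was not tested further.

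Within the 50 kb, the profile over distance was not the same in the 3 conditions. In N2 the median H3K27ac ratio was 2.05 in the outermost 10 kb (93 regions), 1.97 at 10 to 20 kb (55), 1.82 at 20 to 30 kb (75), 1.74 at 30 to 40 kb (78) and 1.66 at 40 to 50 kb (84). Beyond the window it was 1.85 at 50 to 100 kb and 1.92 farther in. The outermost bin was thus the highest of the 7 in N2 and the bin at 40 to 50 kb the lowest. In C0 the order was another: 2.38, 2.55, 2.12, 2.35 and 2.05 over the same 5 bins, with 2.50 at 50 to 100 kb and 2.63 farther in. For H3K36me2 the outermost 10 kb had 1.11 in C0, 1.15 in N1 cells and 1.18 in N2, and the bin at 40 to 50 kb, the lowest within the window in each condition, had 0.97, 0.99 and 1.05. Median width was 3499 bp in the outermost bin and 1858.5 bp at 40 to 50 kb, so that distance and width moved together.

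**Figure D2:**
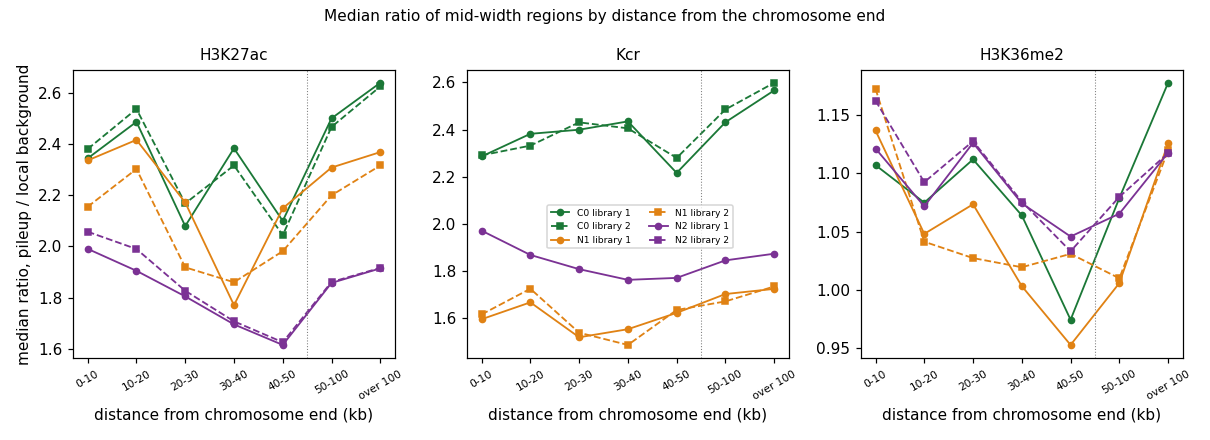
Median ratio of pileup to local background (y axis) of mid-width regions in bins of distance from the chromosome end (x axis, kb), each line 1 library; the dotted line marks the 50 kb limit. In N2 the H3K27ac lines descend over the 5 bins within the limit, with 2.05 in the outermost 10 kb and 1.66 at 40 to 50 kb over both libraries.

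The high outermost bin held the first and last listed regions of the chromosomes. Less than 1 kb from a border lay 39 end regions, a set singled out, with the examples given from it, after the values were seen. Of these, 26 had an H3K27ac ratio of at least 2 in C0 and the same 26 had one in N2. Among the other 346 end regions, 125 of the 187 at that ratio in C0 (66.8%) still had it in N2, and in the interior 1048 of 1555 (67.4%). Outermost regions were wide, with a median of 4411 bp, but with regions of at least 3 kb alone the counts were 22 of 22, 69 of 91 and 721 of 1006. None of the marked outermost regions thus dropped under 2 in N2. H3K27ac was called higher in N2 than in C0 at 12 of the 39 (30.8%) and lower at 8 (20.5%). These shares were 29.4% and 42.1% over all end regions and 23.6% and 54.2% over all regions, without a test. The median H3K27ac ratio of the 39 was 2.56 in C0, 2.55 in N1 cells and 2.49 in N2. Median lambda was 23.4 there in C0, against 20.3 in the other end regions, and the part of this higher background was not tested.

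The right end of chromosome 10 (1236861 to 1244004, distance 0) is an example of a lasting outermost region, with H3K27ac ratios of 5.32 and 5.45 in C0, 4.59 and 5.04 in N1 cells, and 4.77 and 5.35 in N2. On the left of chromosome 15 (286 to 3635) they were 4.58 and 4.10 in C0, 3.73 and 4.15 in N1 cells, and 4.25 and 4.85 in N2. The libraries of N2 and C0 overlapped at both regions, and neither was called in N2 against C0 (log2 difference -0.09 ± 0.07 and 0.07 ± 0.08, SE). Kcr at the chromosome 10 region was higher in N1, with 3.66 and 3.56, than in C0, with 2.44 and 2.41, whereas the median Kcr ratio of all end regions was 1.60 in N1 cells and 2.34 in C0. H3K36me2 moved in the outermost set as well. It was called higher in N2 than in C0 at 13 of the 39 regions (33.3%) and lower at 1 (2.56%), against 22.9% and 13.2% of all end regions and 16.3% and 19.4% of all regions, with no test since the set was picked after its values were seen. On the right of chromosome 4 (1498017 to 1500488, distance 0) it was 1.85 and 1.94 in N2, against 1.19 in C0, a log2 difference of 0.66 ± 0.11 (adjusted p = 5.8e-06), while H3K27ac there was 2.48 and 2.24 in N2 and 3.22 and 3.29 in C0.

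**Figure D3:**
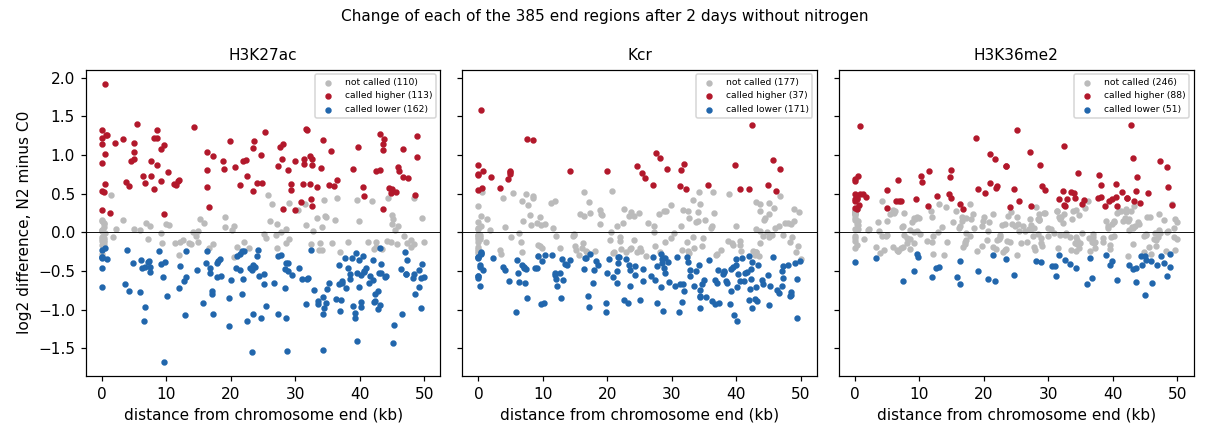
Log2 difference of N2 minus C0 (y axis) for each of the 385 end regions against its distance from the chromosome end (x axis, kb), coloured by the limma call at an adjusted p under 0.05. H3K27ac fell at 162 regions (42.1%; 54.2% of all regions) and rose at 113 (29.4%; 23.6%). H3K36me2 rose at 88 (22.9%; 16.3% of all regions) and fell at 51 (13.2%; 19.4%), and 13 of the 88 lie less than 1 kb from a border.

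After 1 day without nitrogen H3K27ac fell at more end regions than it rose. It was higher in N1 than in C0 at 64 of 385 regions (16.6%; 14.3% of all 3803 regions) and lower at 124 (32.2%; 37.2% of all regions). The median log2 difference was -0.05 at ends and -0.14 in the interior. A change of at least 2-fold was called at 23 end regions (5.97%), of which 11 rose and 12 fell, near the 5.23% of all regions. The direction depended on the scale. With each library centred on its median, 103 end regions were higher (26.8% against 24.4% of all regions) and 87 lower (22.6% against 25.1%). Once medians and spreads were made equal, it was 70 (18.2% against 15.6%) and 67 (17.4% against 18.4%). From pileup alone it was 130 (33.8% against 33.7%) and 62 (16.1% against 15.4%), near the shares of all regions. The median of all regions moved by -0.17 in N1, by -0.45 in N2 and by -0.28 from N1 to N2, the shift that centring removes.

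The largest gain lay 43669 bp from the right end of chromosome 29 (535059 to 537289). Its H3K27ac ratio was 1.63 and 1.82 in C0, 7.00 and 6.20 in N1 cells, and 4.24 and 3.72 in N2, and the log2 difference of N1 to C0 was 1.94 ± 0.09 (adjusted p = 8.48e-13). Part of the gain was still present on the second day. On chromosome 16 (35544 to 46764) the ratio was 0.856 and 0.861 in C0, 2.34 and 2.45 in N1 cells, and 1.88 and 1.69 in N2, the only end region that passed from under 1 to at least 2 (1.48 ± 0.13). On chromosome 12 (16229 to 20485) it was 1.79 and 1.64 in C0, 4.83 and 3.85 in N1 cells, and 2.54 and 2.61 in N2. At none of these 3 did the C0 and N1 libraries overlap, and all 3 were lower in N2 than in N1. They were picked by their N1 to C0 differences, and the same N1 libraries enter N2 against N1, so that a move back was favoured.

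The largest loss was on chromosome 25 (654070 to 655411), 28712 bp from the right end. H3K27ac was 3.60 and 3.76 there in C0, 1.01 and 0.729 in N1 cells, and 1.24 and 1.30 in N2 (N1 to C0 -2.10 ± 0.15, adjusted p = 5.46e-10). The mark thus stood at or under background after a day, and Kcr fell as well, with means of 0.71 in N1, against 1.74 in C0. On the right of chromosome 1 (1652606 to 1653647) H3K27ac was 2.76 and 2.64 in C0, 1.03 and 0.864 in N1 cells, and 1.70 and 1.31 in N2. On the right of chromosome 13 (1005391 to 1006711) it was 4.05 and 3.80 in C0, 1.51 and 1.43 in N1 cells, and 1.64 and 2.17 in N2. All 3 were called higher in N2 than in N1, with log2 differences of 0.57, 0.66 and 0.36. These too were picked by their N1 to C0 differences, so that a move back from N1 was favoured by the choice.

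After 2 days more end regions had changed in both directions. H3K27ac was higher in N2 than in C0 at 113 regions (29.4%; 23.6% of all regions) and lower at 162 (42.1%; 54.2%), with a median log2 difference of -0.13 at ends and -0.35 in the interior. The call of at least 2-fold was reached at 58 (15.1%; 13.2% of all regions), of which 37 rose and 21 fell. Centred, the counts were 209 higher (54.3% against 42.4% of all regions) and 61 lower (15.8% against 24.5%). After medians and spreads were made equal, they were 135 (35.1% against 25.7%) and 37 (9.61% against 15.3%). From pileup alone they were 143 (37.1% against 31.1%) and 116 (30.1% against 38.6%). In each of these scalings the median of the end regions lay above that of the interior. The margin was 0.23 as measured and centred, 0.12 with equal spreads and 0.15 from pileup. At C0 ratios of at least 2 the median difference was -0.46 at ends and -0.56 in the interior. At ratios of 1 to 2 it was -0.116 and -0.075, and under 1 it was 0.73 and 0.77. The C0 value enters both class and difference, and the part of the unequal classes in the margin was not tested. By distance, in the outermost 10 kb 35 of 93 regions rose and 27 fell, and at 40 to 50 kb 21 of 84 rose and 40 fell.

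The strongest gain in N2 stood 412 bp from the left end of chromosome 6 (413 to 1687). Its H3K27ac ratio was 0.343 and 0.327 in C0, 0.423 and 0.287 in N1 cells, and 1.36 and 1.19 in N2 (N2 to C0 1.92 ± 0.22, adjusted p = 1.61e-07). The C0 and N1 libraries overlapped, so that the gain came on the second day. Kcr, measured with another antibody, had ratios of 0.614 and 0.626 in C0, 0.937 and 0.881 in N1 cells, and 1.86 in N2 (1.58 ± 0.21), the largest Kcr gain among the end regions. Gains of 1.40 ± 0.24 on chromosome 19 (5388 to 9697) and 1.36 ± 0.21 on its other end (810400 to 813581) reached no more than 0.742 in N2, against ratios of 0.273 and 0.259 and of 0.265 and 0.226 in C0, so that both stayed under background.

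The strongest loss in N2 was on chromosome 11 (9620 to 17015). H3K27ac was 3.33 and 3.99 in C0, 1.63 and 1.25 in N1 cells, and 1.21 and 1.07 in N2 (N2 to C0 -1.68 ± 0.14, adjusted p = 2.34e-09). The loss was thus already present on the first day. Between N1 and N2 the median of all regions moved by -0.28, and a further loss relative to it was not tested. The region was picked by its N2 to C0 difference, so that a further fall in N2 was favoured by the choice. On chromosome 5 (23256 to 29045) the ratio was 4.27 and 3.87 in C0, 1.81 and 1.61 in N1 cells, and 1.50 and 1.29 in N2 (-1.55 ± 0.11). The C0 libraries stood apart from all others at both. The chromosome 25 region named above followed, at -1.53 ± 0.15. On chromosome 16 the region 34308 to 35490 was the only one to go to a mean under 1 in N2 after one of at least 2 in C0, with 1.14 and 0.86 in N2 and 2.80 and 2.90 in C0.

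**Figure D4:**
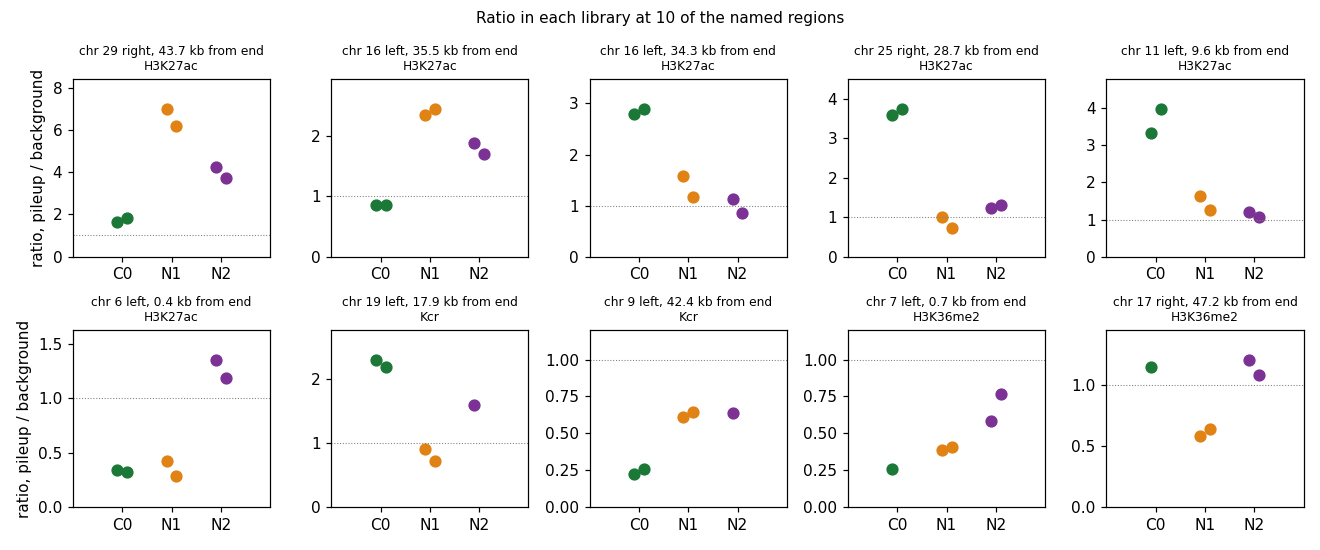
Ratio of pileup to local background (y axis) in each library (points) of C0, N1 and N2 at 10 named end regions; the dotted line marks a ratio of 1. The chromosome 29 region has H3K27ac ratios of 7.00 and 6.20 in N1, against 1.63 and 1.82 in C0, and the chromosome 6 region rises only in N2.

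Between the first and the second day H3K27ac was higher in N2 than in N1 at 85 end regions (22.1%; 19.6% of all regions) and lower at 108 (28.1%; 41.7%), and the 14 changes of at least 2-fold (3.64%; 4.36% of all regions) were all gains. Centred, 180 rose (46.8% against 36.3% of all regions) and 35 fell (9.09% against 15.4%). With equal medians and spreads it was 123 (31.9% against 23.85%) and 19 (4.94% against 8.73%). The largest gains were at the chromosome 6 region, by 1.87 ± 0.22, and on the right of chromosome 14 (990146 to 992268), where the ratio was 0.793 and 0.64 in N2 and 0.309 and 0.23 in N1. The largest losses were on chromosome 20. At 796294 to 797473 H3K27ac was 0.744 and 0.856 in C0, 1.71 and 1.64 in N1 cells, and 0.887 and 0.895 in N2, a gain of 1 day only. At 42952 to 46456 it was 2.04 and 1.98 in C0, 2.56 and 2.46 in N1 cells, and 1.48 and 1.32 in N2.

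This comparison of N2 with N1 shares no library with C0, so it could be read by the C0 level. Of the 213 end regions with a C0 H3K27ac ratio of at least 2, 12 rose and 91 fell between the days, and of the 124 with a ratio under 1, 65 rose and 2 fell. The median log2 difference was -0.18 in the marked class and 0.55 in the unmarked one. Since the median of all regions moved by -0.28, the marked class did not fall relative to that shift. The SD of log2 H3K27ac over end regions was 1.38 in C0, 1.21 in N1 cells and 0.88 in N2. In the interior the same classes gave 51 and 977 of 1555, and 308 and 13 of 566. The difference between ends and interior in these counts was not tested.

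On the first day Kcr was called lower at more end regions than H3K27ac in the values as measured, an order that turned with centring (53 for Kcr and 87 for H3K27ac) and once medians and spreads were made equal (59 and 67). Of all regions, 14.0% were lower for Kcr and 25.1% for H3K27ac when centred, and 12.8% and 18.4% with equal medians and spreads. The difference between the marks was not tested. Kcr was lower in N1 than in C0 at 229 of 385 end regions (59.5%; 64.1% of all regions) and higher at 66 (17.1%; 16.4%), with a median log2 difference of -0.40 at ends and -0.46 in the interior. At least 2-fold changes were called at 35 (9.09%; 9.73% of all regions), 27 of them losses. The median of all regions moved by -0.59. Centring turned the split to 176 higher (45.7% against 42.7% of all regions) and 53 lower (13.8% against 14.0%). Equal medians and spreads turned it to 114 (29.6% against 32.9%) and 59 (15.3% against 12.8%). Pileup alone gave 32 (8.31% against 9.31%) and 273 (70.9% against 71.4%). The largest losses were on chromosome 19 (17884 to 23965), where Kcr was 2.30 and 2.18 in C0, 0.916 and 0.73 in N1 cells, and 1.59 in N2 (N1 to C0 -1.46 ± 0.14, adjusted p = 6.51e-10), and at the chromosome 13 region named above, with 3.92 and 3.75 in C0, 1.53 and 1.38 in N1 cells, and 2.29 in N2. The mark partly returned at both, with gains of 0.96 ± 0.17 and 0.66 ± 0.12 between N1 and N2. Both were picked by their N1 to C0 differences, so that a return from N1 was favoured by the choice. On chromosome 2 (31626 to 33109) it was 3.05 and 3.04 in C0, 1.18 and 1.19 in N1 cells, and 1.63 in N2. Another region of chromosome 19 (43895 to 44953) passed under 1 in N1 on average, with 1.05 and 0.907, against 2.03 and 2.01 in C0.

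The largest Kcr gains in N1 were all at regions that lacked the mark. On chromosome 5 (16357 to 17596) Kcr was 0.285 and 0.311 in C0, 0.753 and 0.888 in N1 cells, and 0.426 in N2 (N1 to C0 1.46 ± 0.21, adjusted p = 3.61e-07). On chromosome 9 (42450 to 43693) it was 0.228 and 0.26 in C0, 0.612 and 0.647 in N1 cells, and 0.636 in N2 (1.37 ± 0.21), and on the right of chromosome 27 (610675 to 612076) 0.25 and 0.252 in C0, 0.664 and 0.622 in N1 cells, and 0.456 in N2. All 3 remained under a ratio of 1, so that the gains are rises toward background. The C0 value enters both the starting level and the gain, so that large gains favour low starts.

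In N2 Kcr was lower than in C0 at 171 end regions (44.4%; 56.1% of all regions) and higher at 37 (9.61%; 7.52%), with 12 changes of at least 2-fold (3.12%; 3.58% of all regions). The median log2 difference was -0.25 at ends and -0.41 in the interior. Centred, 131 rose (34.0% against 27.5% of all regions) and 39 fell (10.1% against 13.9%). With equal medians and spreads it was 32 (8.31% against 5.23%) and 12 (3.12% against 3.73%). The 3 largest losses were on the right ends of chromosome 6 (1305406 to 1306708, -1.14 ± 0.12), chromosome 22 (654303 to 655310, -1.10 ± 0.12) and chromosome 7 (1285806 to 1286821, -1.07 ± 0.12). On chromosome 6 the ratio was 3.47 and 3.14 in C0, 1.63 and 1.68 in N1 cells, and 1.49 in N2, a loss mostly present on the first day. Beside the chromosome 6 left region, Kcr gained on chromosome 9 (1.39 ± 0.26) and on the right of chromosome 5 (1461106 to 1462317), where it was 0.505 and 0.553 in C0, 0.845 and 0.967 in N1 cells, and 1.22 in N2.

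From N1 to N2 Kcr rose at 58 end regions (15.1%; 11.4% of all regions) and fell at 20 (5.19%; 7.47%), with 2 gains of at least 2-fold (0.519%; 0.473% of all regions), which were the chromosome 6 left region and 507 to 3935 on chromosome 3. There Kcr was 0.934 and 0.972 in C0, 0.728 and 0.675 in N1 cells, and 1.42 in N2. This split turned when the libraries were centred, with 32 higher (8.31% against 5.92% of all regions) and 44 lower (11.4% against 17.2%). It also turned with equal medians and spreads, with 44 (11.4% against 8.81%) and 65 (16.9% against 25.0%). Pileup alone gave 235 (61.0% against 53.8%) and 0 (0.237% of all regions). Losses were led by the chromosome 5 region 16357 to 17596, at -0.94 ± 0.25, and by the right of chromosome 7 (1275523 to 1277551), with 0.383 in N2 and 0.704 and 0.734 in N1 cells, and without 1 of the N1 libraries the calls of both were lost (adjusted p = 0.156 without N1 replicate 2 for the first, and 0.0854 and 0.114 without N1 replicate 1 and 2 for the second). N2 entered these fits as a single library.

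Against C0, H3K36me2 was called at fewer end regions than the acyl marks, and in N2 at more regions higher than lower. In N1 it was higher than in C0 at 49 (12.7%; 7.23% of all regions) and lower at 55 (14.3%; 15.1%), with 2 changes of at least 2-fold (0.519%; 0.316% of all regions). The share called, 27.01%, was 17.4% without N1 replicate 1 and 14.5% without N1 replicate 2. In N2 it was higher at 88 (22.9%; 16.3% of all regions) and lower at 51 (13.2%; 19.4%), with 7 gains of at least 2-fold (1.82%; 1.45% of all regions). Centring gave 63 higher (16.4% against 9.91% of all regions) and 38 lower (9.87% against 9.55%) in N1 cells. In N2 it gave 115 (29.9% against 22.7%) and 34 (8.83% against 12.3%). Equal medians and spreads gave 13 (3.38% against 1.03%) and 3 (0.779% against 1.08%) in N1 cells. In N2 they gave 66 (17.1% against 12.5%) and 19 (4.94% against 5.76%). Pileup alone gave 0 and 376 (97.7% against 98.6% of all regions) in N1 cells. In N2 it gave 3 (0.779% against 1.03%) and 321 (83.4% against 86.2%). Both follow from the higher scale of the C0 library. The median log2 difference in N2 was 0.08 at ends and -0.02 in the interior. From N1 to N2, a comparison without the C0 library, H3K36me2 rose at 131 end regions (34.0% against 27.1% of all regions). It fell at 70 (18.2% against 17.2%), and there were 4 gains of at least 2-fold (1.04% against 1.05%). Pileup alone gave 222 (57.7% against 53.0%) and 15 (3.90% against 2.52%).

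The largest H3K36me2 gains in N2 began far under background. The C0 value enters both the starting level and the difference, so that large gains favour low starts and large losses high ones. On chromosome 5 (42865 to 44036) the ratio stood at 0.258 in C0, 0.395 and 0.364 in N1 cells, and 0.645 and 0.704 in N2 (N2 to C0 1.39 ± 0.20, adjusted p = 2e-07). On the left of chromosome 7 (744 to 2751) it stood at 0.257 in C0, 0.39 and 0.411 in N1 cells, and 0.582 and 0.764 in N2, and on chromosome 3 (25180 to 26305) 0.221 in C0, 0.303 and 0.312 in N1 cells, and 0.55 and 0.56 in N2. Each was higher in N1 than in C0 and higher still in N2, though the first step was called only on chromosomes 5 and 7 (adjusted p = 0.0945 on chromosome 3), and none reached 1. The chromosome 3 region carried H3K27ac, at a mean ratio of 2.48 in N2 and 3.60 in C0, whereas the chromosome 7 region had no mark at a ratio of 1 or more in any library. In N1 the gains were led by chromosome 19 (32436 to 33531), with 0.512 and 0.58 in N1 cells and 0.266 in C0, and by the right ends of chromosome 1 (1670090 to 1671108), with 0.441 and 0.423 in N1 cells and 0.21 in C0, and chromosome 8 (1249338 to 1250342), with 0.767 and 0.787 in N1 cells and 0.443 in C0.

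The largest losses of H3K36me2 in N1 were no longer present in N2. As they were picked by their N1 to C0 differences, a return in N2 was favoured by the choice. On chromosome 11 (36992 to 40183) the ratio stood at 1.04 in C0, 0.609 and 0.489 in N1 cells, and 0.918 and 0.974 in N2 (N1 to C0 -0.94 ± 0.16, adjusted p = 9.4e-06). On the right of chromosome 17 (851594 to 853264) it stood at 1.15 in C0, 0.588 and 0.644 in N1 cells, and 1.21 and 1.09 in N2, and 418 bp from the left end of chromosome 8 (419 to 4646) 0.532 in C0, 0.264 and 0.341 in N1 cells, and 0.70 and 0.64 in N2, where the call of N1 against C0 was lost without N1 replicate 1 (adjusted p = 0.0516). The N1 libraries lay under those of N2 at all 3, where N2 was called higher than N1, by 0.79, 0.90 and 1.16, the last the largest such gain. Another was at the right border of chromosome 25 (680470 to 684123), with 0.87 and 0.992 in N2 and 0.483 and 0.424 in N1. In N2 the losses were smaller and began from high ratios: on chromosome 13 (45005 to 46303) H3K36me2 was 0.689 and 0.752 in N2 and 1.27 in C0 (-0.81 ± 0.14), on the right of chromosome 27 (599173 to 600679) 1.15 and 1.19 in N2 and 1.86 in C0, and at the chromosome 5 region 16357 to 17596 1.09 and 1.18 in N2 and 1.80 in C0. From N1 to N2 it fell most on the right of chromosome 26 (637897 to 642434), with 0.767 and 0.736 in N2 and 1.36 and 1.39 in N1 cells, and on chromosome 14 (33332 to 34643), with 0.87 and 0.889 in N2 and 1.47 and 1.60 in N1.

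The marks moved partly together. Over the 385 end regions, log2 enrichments of H3K27ac and Kcr had correlations of 0.96 (C0), 0.95 (N1) and 0.93 (N2), and those of H3K27ac and H3K36me2 had -0.31, -0.34 and -0.09. These are descriptions over regions that share libraries, width and, within a condition, nearly the same background. In N1, 118 end regions lost both acyl marks, which is 95.2% of those that lost H3K27ac and 51.5% of those that lost Kcr, against 93.7% and 54.3% in the interior. In N2 it was 127, or 78.4% and 74.3%, against 88.6% and 86.1% in the interior. H3K36me2 went the other way at part of the regions: in N2, 41 end regions lost H3K27ac and gained H3K36me2 (10.7%; 8.03% of the interior), and 29 gained H3K27ac and lost H3K36me2 (7.53%; 7.32% of the interior). By the C0 level of H3K27ac, H3K36me2 in N2 rose at 58 and fell at 10 of the 213 marked end regions, and rose at 10 and fell at 40 of the 124 unmarked ones. In the interior it rose at 258 and fell at 186 of 1555 marked regions. Of 566 unmarked ones it rose at 24 and fell at 242. The difference between ends and interior was not tested. At ends the median H3K36me2 ratio in C0 was 0.979 in the marked class and 1.315 in the unmarked one. The SD of log2 H3K36me2 over end regions was 0.529 in C0 and 0.325 in N2. The part of these starting levels and spreads in the counts was not tested.

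Some neighbouring end regions moved in opposite directions, a pattern picked out after the values were seen. Of the 93 pairs that lie less than 1 kb apart, both members were called for H3K27ac in N2 against C0 in 37, of which 27 moved in opposite directions (73.0%), 9 fell together and 1 rose together. In the interior 212 of 414 such pairs (51.2%) were opposite, and the difference was not tested. As a share of all pairs under 1 kb apart, called or not, opposite pairs made up 29.0% at ends and 29.7% in the interior. On chromosome 16 the 2 regions named above are 53 bp apart, and in N1 H3K27ac was lower by 1.06 ± 0.16 at 34308 to 35490 and higher by 1.48 ± 0.13 at 35544 to 46764. On the right of chromosome 7 the region 1285806 to 1286821 had 3.45 and 4.11 in C0, 1.75 and 2.07 in N1 cells, and 1.57 and 1.29 in N2, and 288 bp on, the region 1287110 to 1295156 had 1.82 and 1.76 in C0, 4.30 and 3.88 in N1 cells, and 2.72 and 2.82 in N2. The second of these had H3K36me2 ratios of 1.37 and 1.33 in N1, against 1.89 in C0, one of the highest at any end region.

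The highest H3K27ac ratios among the end regions in C0 were 7.28 and 7.03 on the right of chromosome 14 (980968 to 987797), 6.31 and 6.63 on chromosome 28 (39215 to 41610), and 5.75 and 6.44 on the right of chromosome 8 (1266246 to 1274149). All 3 fell in N1, to 4.07 and 4.20, 2.85 and 2.87, and 2.80 and 2.89, and in N2 they had 4.52 and 5.02, 2.85 and 3.15, and 2.92 and 2.92. The first thus kept more of the mark than the others. These regions, and the lowest ones that follow, were picked by their C0 ratios, so that moves toward the middle were favoured by the choice. The lowest C0 ratios were 0.213 and 0.251 on the right of chromosome 18 (886756 to 888733), 0.265 and 0.226 at the right chromosome 19 region 810400 to 813581, and 0.253 and 0.234 on the right of chromosome 10 (1210571 to 1212365), and all 3 rose in N2, where no library exceeded 0.661. Kcr was highest in C0 on chromosome 24 (19767 to 21118), with 4.52 and 4.26, on the right of chromosome 30 (456709 to 458294), with 4.25 and 4.12, and on the right of chromosome 25 (644585 to 646886), with 3.91 and 4.35. Its lowest ratios were those of the chromosome 9, 27 and 19 regions described above. H3K36me2 reached at most 1.92 in C0, on chromosome 17 (12603 to 21088), with 1.89 at the chromosome 7 region 1287110 to 1295156 and 1.88 on chromosome 11 (43618 to 45941). Mean H3K27ac ratios in C0 were 0.762 at the chromosome 17 region, 1.79 at the chromosome 7 region and 0.33 at the chromosome 11 region.

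Single chromosome ends differed widely. At 54 ends with at least 3 regions, the median H3K27ac ratio in C0 was lowest on the left of chromosome 7, at 0.303 and 0.292 over 3 regions, and highest on the left of chromosome 15, at 4.32 and 4.18 over 4 regions. On the left of chromosome 7 the median was 0.45 and 0.511 in N1 cells and 0.694 and 0.621 in N2, the largest rise among these 54 ends (median log2 differences 0.55 in N1 cells and 0.95 in N2), from a level under background. The largest fall was on the left of chromosome 11, where the median over 7 regions was 3.57 and 3.74 in C0, 2.04 and 1.66 in N1 cells, and 1.87 and 1.73 in N2. There 6 of the 7 regions were called lower in N2 and 1 higher, against 54.2% and 23.6% of all regions. An end that moved as a block, chosen after its values were seen, was the right of chromosome 6. H3K36me2 rose there at 7 of 9 regions in N1 cells, against 7.23% of all regions. Between N1 and N2 it fell again at 7 of 9, against 17.2% of all regions. The median over those 9 regions was 1.09 in the single C0 library, 1.36 and 1.48 in N1 cells, and 1.06 and 1.01 in N2. Regions of 1 end are neighbours and not independent.

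**Figure D5:**
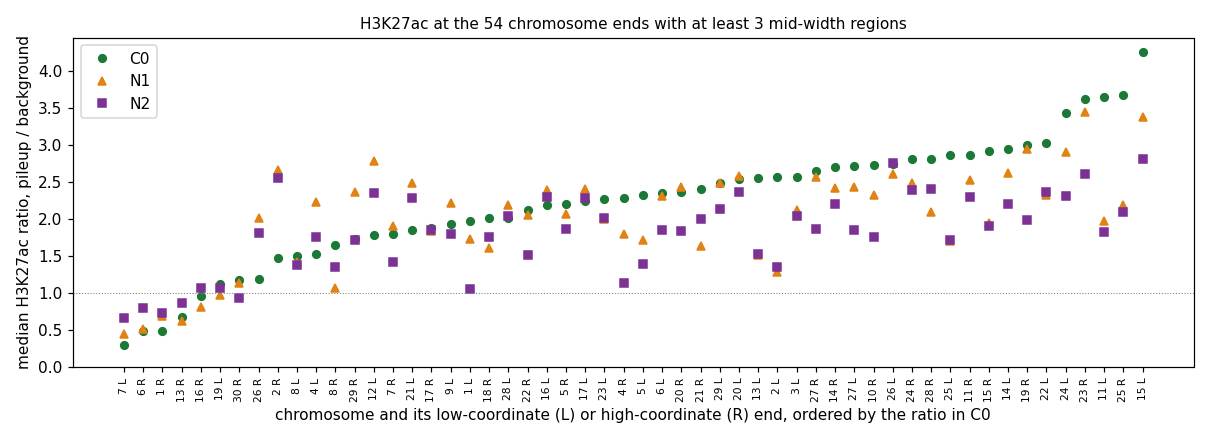
Median H3K27ac ratio of pileup to local background (y axis) of the end regions at each of the 54 chromosome ends with at least 3 of them (x axis, ordered by the ratio in C0; L, left; R, right), in C0, N1 and N2. The ends run from 0.298 to 4.25 in C0, with the left of chromosome 7 lowest and the left of chromosome 15 highest.

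Regions next to the limits of the rule had no common level. The farthest region inside the window stood 49984 bp from the left end of chromosome 8 (49985 to 52134), with an H3K27ac ratio in C0 of 1.50, and the nearest outside stood 50191 bp from the right end of chromosome 2 (1609536 to 1615464), with 4.92. The narrowest region taken was the chromosome 8 region 1249338 to 1250342, 1005 bp wide, with 1.13, and the nearest one left out as too narrow was on chromosome 21 (38460 to 39455), 996 bp wide, with 2.16. The widest taken, 11764 bp on chromosome 20 (3850 to 15613), had 3.66, and the nearest left out as too wide, 12464 bp on chromosome 11 (1114208 to 1126671), had 4.18. No gene is assigned to the regions here, and coordinates are those of the deposited table. The study's methods name version 2 of the strain's genome database for Hi-C and give no build for the ChIP-seq alignment, so that the build of these coordinates is not stated in the sources used here.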

How the data were processed

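H3K27ac, Kcr and H3K36me2 were measured by ChIP-seq in C0, N1 and N2 cells, with groups taken from the labels. The submitters' processing notes and the study's methods name Trim Galore for trimming, BWA for alignment, Picard for duplicates, deepTools, and MACS2 for broad peaks over input. Version 2 of the IMET1 genome database is named for Hi-C, whereas for ChIP-seq no genome build, tool version or rule for merging peaks is given in the sources used here. The authors deposited, for each region and library, a coverage signal (pileup) and the local background (lambda), both scaled per library. In each library 100.0% of pileups were whole multiples of 1 step, to within 0.05 of it, and the inverse of the step was read as depth, which it is not for H3K36me2 in C0 (2.63 M). No count test was run, since these are not counts. Of the 9 deposited tables, 1 was used, and the other 8, for other pairs of marks or conditions, were not. The authors' log2 fold changes and p-values were not used. A further 36 columns of 12 libraries that the labels do not cover were not used.

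Enrichment was log2(pileup + 0.5) minus log2(lambda + 0.5). For each mark limma-trend (limma 3.58.1, R 4.3.3) was fitted over all 3803 regions and 3 conditions without a replicate block, with 3 residual degrees of freedom for H3K27ac, 2 for Kcr and 2 for H3K36me2. A call needed an adjusted p under 0.05 (Benjamini-Hochberg, over all regions). A group with 1 distinct library was taken to vary like the mark's other groups. The fit was tested on simulated data. Levels were described with Python 3.11.15. A region was at an end if it started below 50 kb or ended within 50 kb of the largest listed end. Alternatives were other pseudocounts, pileup alone, centring, equal medians and spreads, a filter, other fits, leaving out each library, and end windows of 25 and 100 kb. The replicate numbers did not pair the samples.

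Regions named were, for each mark, the 3 largest called gains and losses in N1 and in N2 against C0 and the 2 largest between N2 and N1 with libraries that did not overlap, the 3 highest and lowest in C0, those that crossed between a ratio under 1 and at least 2, the extreme chromosome ends and the regions at the limits of the rule. Others are said to be chosen after their values were seen. The regions and the rule were chosen with earlier results of these data known.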

Additional observations from a re-analysis of the deposited data

Results flagged for a closer look

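At 11 end regions a mark was called in opposite directions in N1 and in N2, both against C0, with the difference between N2 and N1 called by limma. They were found by searching all 385 end regions and 3 marks, and the 2 contrasts share the C0 libraries. The other regions were not searched, so that no share over all regions stands beside this count. All are calls on the values as measured, and calls against C0 depend on the shift of all regions. The median of all regions moved by -0.17 in N1 and -0.45 in N2 for H3K27ac. It moved by -0.59 and -0.46 for Kcr and by -0.063 and -0.085 for H3K36me2. Each value below is the log2 difference of N2 minus N1, unless another is named.

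H3K27ac was higher in N1 and lower in N2 than in C0 at 4 regions. On chromosome 1 (1644301 to 1646850) the difference was -0.68, where the mean ratio was 2.66 in C0, 3.72 in N1 cells and 2.31 in N2. On chromosome 10 (1195984 to 1196999) it was -0.61, with ratios of 2.63, 3.36 and 2.21 in that order. On chromosome 20 (42952 to 46456) it was -0.85, with 2.01, 2.51 and 1.40, and on chromosome 6 (16327 to 18071) it was -0.59, with 2.91, 3.69 and 2.45. No end region showed the opposite course for this mark. The N2 to C0 differences at the 4 regions, in that order, were -0.20, -0.25, -0.525 and -0.24. The median of all regions moved by -0.45. Relative to that shift, only the chromosome 20 region was lower in N2 than in C0.

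Kcr took such a course at 2 regions, in either direction. On chromosome 5 (425 to 10619) the difference was -0.57, with ratios of 2.62 in C0, 3.25 in N1 cells and 2.20 in N2. On chromosome 3 (507 to 3935) it was 1.02, with 0.953, 0.701 and 1.42. Both lie less than 1 kb from a chromosome border. The falls against C0, -0.25 in N2 on chromosome 5 and -0.44 in N1 on chromosome 3, were smaller than the shifts of -0.46 and -0.59. Relative to those shifts neither region was lower than in C0.

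H3K36me2 was higher in N1 and lower in N2 at 1 region, on chromosome 14 (33332 to 34643), where the difference was -0.80 with ratios of 1.17 in C0, 1.53 in N1 cells and 0.879 in N2. It was lower in N1 and higher in N2 at 4 regions. On chromosome 10 (1217059 to 1218541) the difference was 0.99, with 0.88, 0.59 and 1.17, and on chromosome 11 (33434 to 34869) it was 0.96, with 0.824, 0.604 and 1.18. On chromosome 20 (22049 to 23207) it was 1.03, with 0.86, 0.638 and 1.30, and on chromosome 26 (41356 to 42680) it was 1.03, with 0.639, 0.448 and 0.917.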

How the results depend on the processing

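The share of end regions called in either direction kept within 1.5 times its reported value in 139 of 150 alternatives. That count takes no account of direction. Centring is among the alternatives so kept in every comparison. Yet it turned the balance of gains and losses for H3K27ac and Kcr in N1, in N2 and in N2 against N1. It also turned that of H3K36me2 in N1. Giving the libraries equal medians and spreads lowered it to 44.7% for H3K27ac in N2 against C0 (71.4% as reported), 44.9% (76.6%) and 11.4% (54.0%) for Kcr in N1 and N2, and 4.16% (27.01%) and 22.1% (36.1%) for H3K36me2 in N1 and N2. Pileup alone raised it to 61.0% (20.3%) for Kcr in N2 against N1, and to 97.7% and 84.2% for H3K36me2 in N1 and N2, the H3K36me2 values through the scale of the C0 library. Without a trend in the fit Kcr in N2 against N1 was called at 8.57%. Leaving out each library in turn gave 14.5% to 27.01% for H3K36me2 in N1, 37.4% to 49.6%, 61.3% to 73.8% and 40.5% to 48.1% for H3K27ac in N1, N2 and N2 against N1, 67.8% to 75.3%, 51.2% to 53.8% and 15.6% to 24.9% for Kcr in the same order, and 28.1% to 32.5% and 36.6% to 43.6% for H3K36me2 in N2 and in N2 against N1.

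The end minus interior difference of median log2 enrichment is given here for C0, N1 and N2 in that order. As reported it was -0.197, -0.158 and -0.072 for H3K27ac, -0.139, -0.115 and -0.029 for Kcr, and -0.116, -0.036 and -0.018 for H3K36me2. With a 100 kb window it was -0.144, -0.097 and -0.058, then -0.100, -0.077 and -0.026, then -0.132, -0.108 and -0.046 for the marks in the same order. With 25 kb it was -0.122, -0.058 and 0.010, then -0.123, -0.093 and 0.045, then -0.061, 0.023 and 0.021. Without the regions less than 1 kb from a border, an alternative chosen after seeing the data, it was -0.260, -0.211 and -0.143, then -0.140, -0.136 and -0.057, then -0.112, -0.076 and -0.028. Pileup alone gave -0.161, -0.220 and -0.097, then -0.075, -0.174 and -0.027, then -0.075, -0.044 and -0.041. Within width classes it was -0.085, -0.050 and -0.009, then -0.098, -0.076 and -0.014, then -0.074, -0.024 and 0.008. Within chromosomes H3K36me2 moved to -0.100 in C0 and -0.013 in N1. The sign of the N2 gap for H3K27ac and Kcr, and of the N1 and N2 gaps for H3K36me2, thus rested on the window or the width, and the cause was not tested.

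Of 48 named differences, 41 kept call and direction in every setting and 5 lost the call in at least 1. Pileup alone turned 3 H3K36me2 gains in N1 round, to -0.21 on chromosome 1 (1670090 to 1671108), -0.13 on chromosome 19 (32436 to 33531) and -0.22 on chromosome 8 (1249338 to 1250342).

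Same-numbered libraries did not deviate together, with a correlation of -0.02 to 0.03, and with the replicate number as a block 48.8%, 71.7% and 48.6% of end regions were called for H3K27ac in N1, N2 and N2 against N1, 76.6%, 51.7% and 19.7% for Kcr and 23.9%, 30.1% and 51.9% for H3K36me2. Depth limits low ratios most, since standard errors were about 0.2 there, and no interval can cover variation between cultures.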

Other observations

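The median H3K27ac ratio of the 185 left end regions was 2.34 in C0, 2.21 in N1 cells and 1.84 in N2, and that of the 200 right ones was 2.17, 1.90 and 1.70. The median width was 2956 and 2319.5 bp. H3K27ac was higher in N2 than in C0 at 48 left (25.9%) and 65 right regions (32.5%; 23.6% of all regions) and lower at 83 (44.9%) and 79 (39.5%; 54.2% of all regions). H3K36me2 was higher at 46 (24.9%) and 42 (21.0%; 16.3% of all regions) and lower at 19 (10.3%) and 32 (16.0%; 19.4% of all regions). No test was made of these differences.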
